A study of Mus musculus with 12 samples.

Results

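The secreted Wnt antagonists are extracellular proteins that hold back Wnt signalling. They were followed here as 9 genes, Sfrp1, Sfrp2, Sfrp4, Sfrp5, Frzb, Wif1, Dkk1, Dkk2 and Dkk3, taken by symbol from the 23358 genes of the deposited count table. Expression was measured by RNA sequencing of newborn mouse skull, from mice at postnatal day 3. The dissected piece held the frontal and nasal bones with the coronal suture and the frontonasal suture. The design crossed genotype with strain. Wild type mice and mice heterozygous for Fgfr2 C342Y, a receptor mutation that models Crouzon syndrome and its early suture fusion, were studied on C57BL/6 and on BALB/c, with 3 samples in each of the 4 groups. Replicates 1 to 3 were C57BL/6 wild type, 4 to 6 C57BL/6 Crouzon, 13 to 15 BALB/c wild type and 16 to 18 BALB/c Crouzon. The mutation is in the germline, so every cell of a Crouzon sample carries it, and both Fgfr2 alleles are counted together. Nothing in the labels says whether the samples of a group came from separate animals, so p-values measure only the spread between these samples.

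Wnt proteins bind Frizzled receptors together with the co-receptors Lrp5 and Lrp6, and in the canonical branch this stabilises beta-catenin and turns on TCF/LEF target genes. Sfrp proteins, Frzb (also named Sfrp3) and Wif1 bind Wnt proteins directly outside the cell. Dkk1 and Dkk2 instead bind the co-receptors, while Dkk3 is a divergent member of the Dkk family whose effect on Wnt signalling depends on the setting. In bone, canonical Wnt signalling favours osteoblasts, the bone-forming cells, and several antagonists are made by osteoblasts and osteocytes themselves.

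The libraries held 27.2 M to 46.5 M gene counts. All C57BL/6 samples carry 1 run identifier and all BALB/c samples another, so strain and run cannot be told apart. The makeup of the tissue also differed between libraries. The summed level of 10 markers of respiratory and olfactory epithelium, the lining of the nose, was 390 to 780 CPM (counts scaled to a common library size with TMM factors) in the 3 C57BL/6 wild type libraries. It was 190 CPM in C57BL/6 Crouzon replicate 4, 5.29 and 7.06 CPM in replicates 5 and 6, and 5.06 to 5.4 CPM in the BALB/c libraries, where Krt14 was at 0 in both groups. Of 11 chondrocyte markers, 10 were in the table, and their sum was 8621 to 10412 CPM in C57BL/6 wild type, 3680 to 6577 CPM in C57BL/6 Crouzon, 3703 to 4840 CPM in BALB/c wild type and 4411 to 9267 CPM in BALB/c Crouzon libraries. All 8 osteoblast markers were detected in every library, at a sum of 112662 CPM in C57BL/6 wild type replicate 1, which stood below all other libraries, 190500 and 195450 CPM in replicates 2 and 3, 217533 to 260699 CPM in C57BL/6 Crouzon and 183908 to 209200 CPM in BALB/c libraries. Erythroid markers (6 of 8 in the table) summed to 178 to 241 CPM in C57BL/6 wild type and 47.2 to 74.4 CPM in C57BL/6 Crouzon libraries, and to 190 to 302 CPM in BALB/c wild type and 379 to 468 CPM in BALB/c Crouzon libraries. They were thus lower in Crouzon libraries on C57BL/6 and higher on BALB/c, without overlap in either strain. The 5 endothelial markers summed to 326 to 391 CPM in C57BL/6 wild type and 404 to 491 CPM in C57BL/6 Crouzon libraries, and to 378 to 439 CPM in BALB/c libraries. The part of these markers in the results was not tested. Y-linked genes were high in 3 of 3 C57BL/6 wild type libraries and in 1 of 3 of each other group. In bulk tissue, fewer cells of a type and less RNA per cell cannot be told apart. Fgfr2 itself stood at 249 CPM ± 35.8 (SD, n = 3) in C57BL/6 wild type, 361 ± 20.6 in C57BL/6 Crouzon, 282 ± 11.4 in BALB/c wild type and 300 CPM ± 25 in BALB/c Crouzon samples, and counts of both alleles together do not check the genotype labels.

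All 9 antagonists passed the filter on low counts. Per kilobase of gene model, Wif1 and Sfrp2 were the most abundant in all 4 groups. In C57BL/6 wild type samples Wif1 stood at 198 CPM per kilobase ± 15.6, Sfrp2 at 73 ± 11.3, Dkk3 at 49.3 ± 10.8, Sfrp4 at 24.4 ± 7.54 and Dkk1 at 19.2 ± 4.57 (SD, n = 3). Sfrp1 at 13.4 ± 5.5, Frzb at 10.7 ± 1.5, Dkk2 at 4.07 ± 1.16 and Sfrp5 at 2.44 CPM per kilobase ± 0.593 were lower. In this order Sfrp4 and Dkk1 lay within 1 SD of each other, as did Sfrp1 and Frzb. In BALB/c wild type samples the order at the top was the other way round, with Sfrp2 at 247 CPM per kilobase ± 32.6 and Wif1 at 205 ± 33.7. Their levels overlapped between libraries, but Sfrp2 was above Wif1 within each library. In replicates 13, 14 and 15 these were 253 against 188, 211 against 184 and 276 against 244 CPM per kilobase.

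Summed over the 9 genes, the level per kilobase was 394 ± 33.9 in C57BL/6 wild type, 547 ± 45.2 in C57BL/6 Crouzon, 582 ± 57.3 in BALB/c wild type and 443 ± 27.4 in BALB/c Crouzon samples (SD, n = 3). The sum ranged from 373 to 433 in C57BL/6 wild type and from 503 to 593 in C57BL/6 Crouzon libraries, so it was higher in each Crouzon library on that strain. In BALB/c the ranges lay the other way round, 522 to 637 in wild type and 412 to 462 in Crouzon. Wif1 made up 50.2% ± 0.419 of the sum in C57BL/6 wild type and 69.6% ± 3.2 in C57BL/6 Crouzon samples, against 35.2% ± 3.15 and 39.1% ± 1.13 in BALB/c (SD, n = 3). Sfrp2 made up 18.5% ± 1.67 and 9.55% ± 0.793 in C57BL/6, and 42.3% ± 1.58 and 32.1% ± 2.39 in BALB/c. These sums and shares are descriptions without a test.

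**Figure D1:**
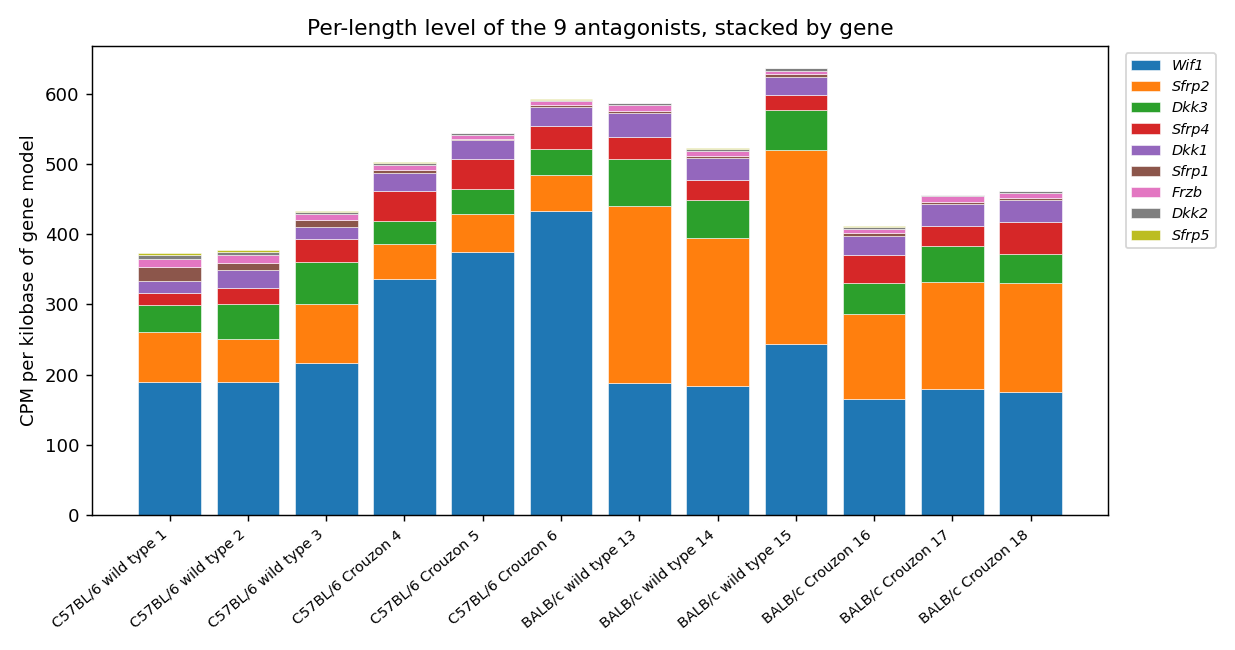
Level of the 9 secreted Wnt antagonists in each of the 12 libraries, in CPM per kilobase of gene model, stacked by gene. Wif1 fills the largest block in all 6 C57BL/6 libraries and is larger in the Crouzon ones, while Sfrp2 is a much larger block in BALB/c than in C57BL/6.

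On C57BL/6, 8 of the 9 antagonists differed between Crouzon and wild type samples at an adjusted p under 0.05 (edgeR quasi-likelihood test, Benjamini-Hochberg over 16190 genes), where 23.9% of all genes tested did. Wif1, Sfrp4 and Dkk1 rose (3 genes, against 11.3% of all genes called higher), and Sfrp1, Sfrp2, Frzb, Dkk2 and Dkk3 fell (5 genes, against 12.6% called lower). Sfrp5 alone was not called. The median log2 fold change of the 9 was -0.50, and that of all genes was 0.00. For 8 of the 9, Crouzon and wild type libraries lay in separate CPM ranges, as they did for 41.6% of all genes tested. The count of 8 fell to 4 without wild type replicate 1, Crouzon replicate 5 or Crouzon replicate 6, and to 5 without wild type replicate 3. With library totals in place of TMM factors 6 were called, 1 higher (Wif1) and 5 lower, where the median of all genes was -0.20 and 3.8% of genes were called higher and 25.1% lower. The count was also 4 with a covariate for the Y-linked genes and with only the 6 C57BL/6 samples in the fit. Wif1, Sfrp1, Frzb and Sfrp2 were called in both of those fits, and the calls for Sfrp4, Dkk1, Dkk2 and Dkk3 ended in both.

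On BALB/c, 1 of the 9 antagonists was called, Sfrp2, where 0.136% of all genes were, and it was lower in Crouzon samples (0.0432% of all genes were called lower and 0.0926% higher). The median log2 fold change of the 9 was -0.05. The CPM ranges of Crouzon and wild type did not overlap for 3 of the 9, namely Sfrp2, Dkk3 and Wif1, against 20% of all genes. Sfrp4 and Dkk3 had unadjusted p-values under 0.05 that did not hold after adjustment (adjusted p 0.416 and 0.332, edgeR).

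**Figure D2:**
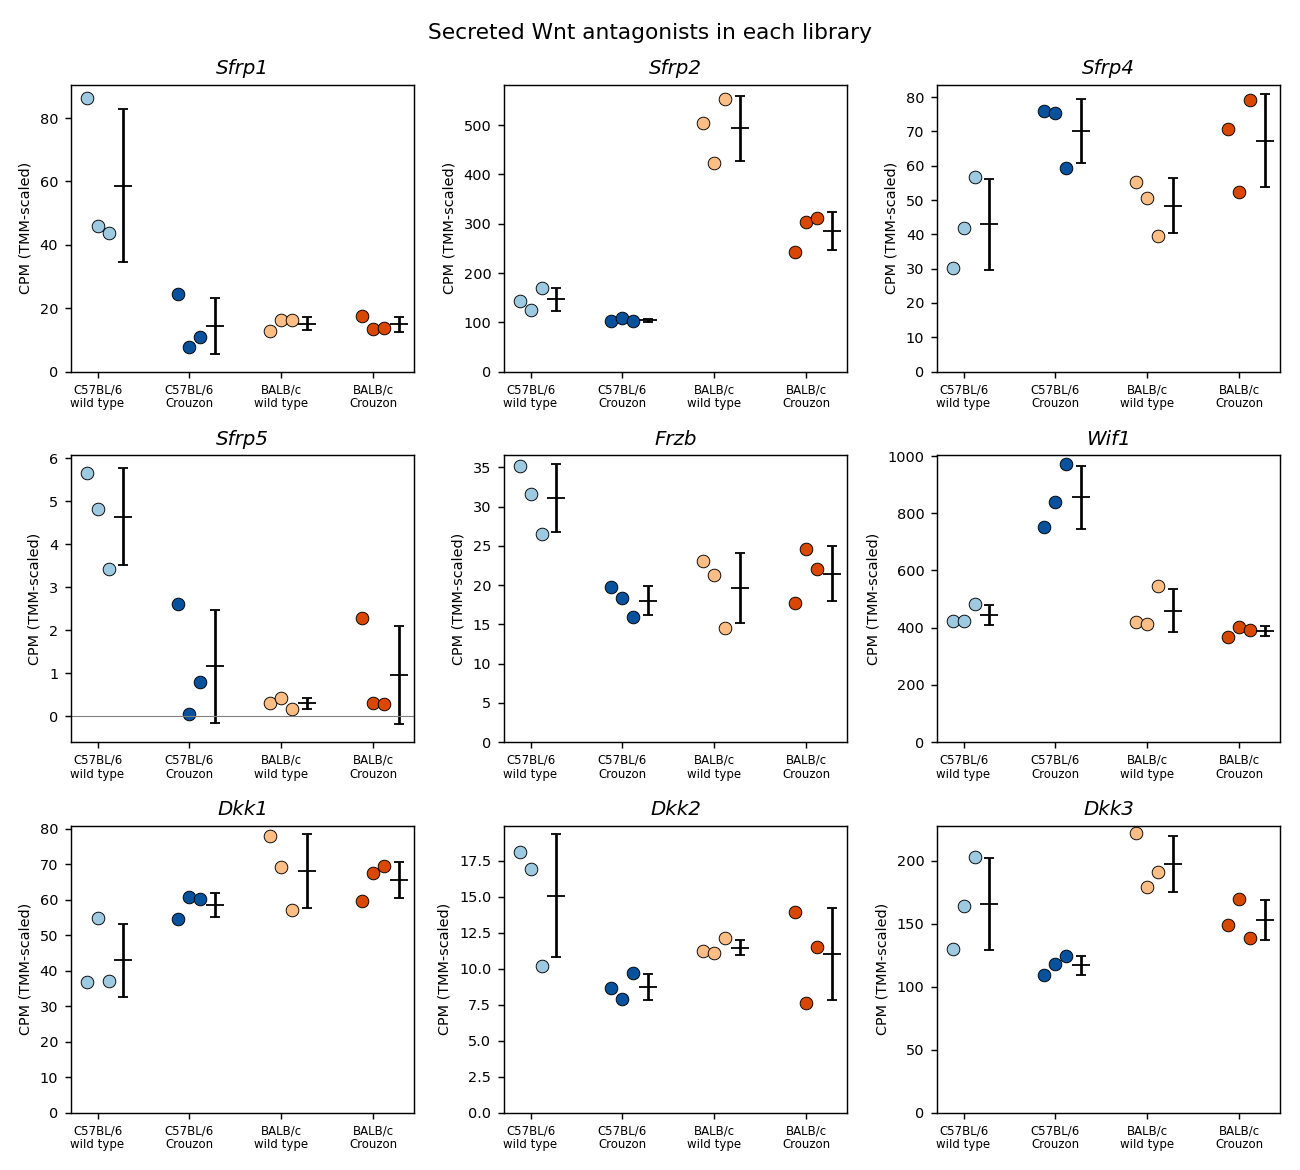
Level of each secreted Wnt antagonist in CPM, 1 point per library, with the mean and SD of each group of 3 beside the points. The 3 C57BL/6 Crouzon libraries stand above all others for Wif1 (753 to 972 CPM), and the BALB/c libraries stand above all C57BL/6 ones for Sfrp2.

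Wif1, a Wnt-binding protein that bone-forming cells make, lies on chromosome 10 at 121034004 to 121100642, forward strand (coordinates are those of the deposited table, build mm10). Its level was 423, 423 and 484 CPM in the C57BL/6 wild type libraries and 753, 841 and 972 CPM in the C57BL/6 Crouzon libraries. It was 421, 412 and 547 CPM in BALB/c wild type and 369, 404 and 392 CPM in BALB/c Crouzon libraries. Only the 3 C57BL/6 Crouzon libraries were high, and each lay well above every library of the other groups. On C57BL/6 the Crouzon samples differed by 0.95 in log2 fold change (SE 0.12, adjusted p 5.55e-04, edgeR), or 1.93-fold. It was called in 6 of 6 fits that left out 1 library, with log2 fold changes of 0.84 to 1.03. On BALB/c the log2 difference was -0.24 (SE 0.119, adjusted p 0.464, edgeR), with every Crouzon library slightly below every wild type one. The osteoblast marker sum was also highest in the C57BL/6 Crouzon libraries, 217533 to 260699 CPM, against at most 209200 CPM in any other library, and its part in the Wif1 result was not tested. Among 10509 genes with a mean of at least 5 CPM, those whose log2 CPM ran closest to Wif1 over the 12 samples were Lamp2 (Pearson r 0.969) and Golm1 (r 0.955). These likenesses, and those given for other antagonists, are over samples that share 4 groups and 2 run identifiers.

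The Crouzon effect on Wif1 differed between strains. The interaction, the log2 effect on BALB/c minus that on C57BL/6, was -1.19 (SE 0.169, adjusted p 0.00273, edgeR), and it was called in 12 of 12 fits without 1 library (-1.27 to -1.05). Between strains, Wif1 did not differ past the threshold in wild type samples (log2 0.05, SE 0.119, adjusted p 0.732) and lower on BALB/c in Crouzon samples (log2 -1.14, SE 0.12, adjusted p 2.98e-05, edgeR). The 2 strain comparisons, the interaction and the genotype comparisons share samples, so these values are not independent of each other.

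Dkk1, which blocks canonical signalling by binding Lrp5 and Lrp6, lies on chromosome 19 at 30545885 to 30549496, reverse strand. Its level was 36.9, 54.7 and 37 CPM in C57BL/6 wild type libraries and 54.6, 60.7 and 60.1 CPM in C57BL/6 Crouzon libraries. In BALB/c it was 77.8, 69.2 and 57 CPM in wild type and 59.7, 67.6 and 69.4 CPM in Crouzon libraries. On C57BL/6 wild type replicate 2 reached the lowest Crouzon library, so the groups touched. The log2 fold change of 0.45 (SE 0.148, adjusted p 0.0459, edgeR) lay close to the threshold. It ended without wild type replicate 1, wild type replicate 3, Crouzon replicate 5 or Crouzon replicate 6 (adjusted p 0.136, 0.132, 0.116 and 0.122), and with library totals in place of TMM factors (log2 0.26, adjusted p 0.158). The Y-linked covariate and a fit of only the C57BL/6 samples ended the call too. The BALB/c difference of -0.05 (SE 0.147, adjusted p 0.946, edgeR) was within the spread. The interaction of -0.50 was not called (SE 0.208, adjusted p 0.134), but was without C57BL/6 wild type replicate 2 (-0.71, adjusted p 0.0214). Nearest in pattern over the 12 samples were Ctsw (r 0.942) and Stat6 (r 0.933).

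Dkk1 is itself a known target of beta-catenin and TCF/LEF factors, so the stretches of its promoter that hold the TCF/LEF core letters CTTTGA, or their reverse complement, are shown. They come from RefSeq promoter sequence of GRCm38.p6, which held 6 of the 9 antagonists, and the 250 bases before each RefSeq start were searched on both strands. The core was found in 13.8% of 32851 such windows. Dkk1 had 2 cores, whose first bases lie 174 and 117 bases before the RefSeq start. Frzb had 1, at 95 bases before its RefSeq start, and Wif1, Sfrp2, Dkk2 and Sfrp5 had 0. GENCODE starts both genes further upstream, Dkk1 at 30549665 and Frzb at 80447625, so the nearer Dkk1 core and the Frzb core lie within the GENCODE genes and the farther Dkk1 core reaches the GENCODE start. A letter match is a description and not a binding site. In the 30 bases around each core, written 5′ to 3′ on the gene's strand, the capitals mark the core.
Dkk1, chr19:30549653-30549682, reverse strand: gaggggagagtgTCAAAGtcctccctgctt
Dkk1, chr19:30549596-30549625, reverse strand: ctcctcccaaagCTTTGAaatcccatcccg
Frzb, chr2:80447474-80447503, reverse strand: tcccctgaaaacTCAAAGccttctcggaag

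Dkk2, the other co-receptor antagonist, lies on chromosome 3 at 132085292 to 132180304, forward strand. Its level was 18.1, 16.9 and 10.2 CPM in C57BL/6 wild type libraries and 8.63, 7.91 and 9.7 CPM in C57BL/6 Crouzon libraries. On BALB/c it was 11.2, 11.1 and 12.1 CPM in wild type and 13.9, 7.62 and 11.5 CPM in Crouzon libraries. On C57BL/6 wild type replicates 1 and 2 were high and replicate 3 lay just above the Crouzon libraries. The log2 fold change was -0.79 (SE 0.226, adjusted p 0.0274, edgeR). It was not called without wild type replicate 1, wild type replicate 2, Crouzon replicate 5 or Crouzon replicate 6 (adjusted p 0.114, 0.0749, 0.0875 and 0.0574), or with the Y-linked covariate (-0.60, adjusted p 0.106). A fit of only the C57BL/6 samples did not call it either. On BALB/c the groups overlapped (log2 -0.07, SE 0.226, adjusted p 0.96). The interaction of 0.72 missed the threshold (SE 0.319, adjusted p 0.156) and passed it without C57BL/6 wild type replicate 3 (0.94, adjusted p 0.0442). Galnt4 (r 0.894) and Bcam (r 0.888) were nearest in pattern.

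Dkk3, the divergent family member, lies on chromosome 7 at 112116019 to 112159057, reverse strand. Its level was 130, 164 and 203 CPM in C57BL/6 wild type libraries and 109, 118 and 124 CPM in C57BL/6 Crouzon libraries. In BALB/c it was 222, 179 and 191 CPM in wild type and 149, 170 and 139 CPM in Crouzon libraries. Every Crouzon library lay below every wild type library of its own strain, in both strains. The summed level of 10 markers of suture mesenchyme and periosteum was 1693, 2428 and 2321 CPM in C57BL/6 wild type and 1634, 1774 and 1745 CPM in C57BL/6 Crouzon libraries. On BALB/c it was 2147, 1807 and 1819 CPM in wild type and 1815, 1841 and 1618 CPM in Crouzon libraries. The groups overlapped in both strains. On BALB/c the library with the highest Dkk3 level, wild type replicate 13, had the highest sum, and that with the lowest, Crouzon replicate 18, had the lowest sum. The part of these markers in the Dkk3 result was not tested. Dkk3 differed by -0.50 in log2 fold change on C57BL/6 (SE 0.14, adjusted p 0.0241, edgeR) and -0.37 on BALB/c (SE 0.14, adjusted p 0.332), and the interaction of 0.13 (SE 0.197, adjusted p 0.695) did not separate them. The C57BL/6 call ended without wild type replicate 3, Crouzon replicate 5 or Crouzon replicate 6 (adjusted p 0.074, 0.062 and 0.0558), or with the Y-linked covariate (adjusted p 0.0588). It also ended with only the C57BL/6 samples in the fit (adjusted p 0.0844, edgeR). Over the 7 alternatives that kept all libraries of the comparison, the log2 fold change was -0.68 to -0.48. Over the mean of both strains the log2 fold change was -0.44 (SE 0.0988, adjusted p 0.0228, edgeR), which ended without BALB/c wild type replicate 13 or BALB/c Crouzon replicate 18 (adjusted p 0.0653 and 0.0677). The matrix genes Thbs3 (r 0.965) and Aspn (r 0.96) were nearest to Dkk3 in pattern.

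Sfrp2, a secreted Frizzled-related protein of mesenchyme, lies on chromosome 3 at 83766321 to 83774314, forward strand. Its level was 144, 125 and 170 CPM in C57BL/6 wild type libraries and 102, 108 and 103 CPM in C57BL/6 Crouzon libraries. On BALB/c it was 505, 423 and 552 CPM in wild type and 242, 304 and 312 CPM in Crouzon libraries. Crouzon libraries were below wild type in both strains without overlap, and every BALB/c library was above every C57BL/6 library. The log2 fold change was -0.49 on C57BL/6 (SE 0.129, adjusted p 0.0194, edgeR) and -0.79 on BALB/c (SE 0.129, adjusted p 0.0487, edgeR). The interaction of -0.30 (SE 0.182, adjusted p 0.296) did not separate the strains. The summed level of 6 markers of dura mater and meninges was also higher in every BALB/c library, at 113 to 134 CPM, than in any C57BL/6 library, at 92.5 to 109 CPM, and its part in the Sfrp2 levels was not tested. The markers of suture mesenchyme and periosteum had a median sum of 2321 CPM in C57BL/6 wild type and 1745 CPM in C57BL/6 Crouzon libraries, and of 1819 and 1815 CPM on BALB/c, with overlap in both strains, and their part was not tested either.

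The BALB/c call for Sfrp2 was kept in 1 of 6 fits that left out 1 library. It ended without wild type replicate 13 or 15 (adjusted p 0.193 and 0.234), and without Crouzon replicate 16, 17 or 18 (adjusted p 0.0789, 0.104 and 0.171). Library totals (-0.75, adjusted p 0.0607) and the Y-linked covariate (-0.79, adjusted p 0.0686) also ended it. On C57BL/6 it ended without wild type replicate 1, wild type replicate 3 or Crouzon replicate 6 (adjusted p 0.0535, 0.0602 and 0.0654). Over the mean of both strains Sfrp2 was lower in Crouzon samples (log2 -0.64, SE 0.0912, adjusted p 0.00309, edgeR), and this was called in 12 of 12 fits without 1 library. In GENCODE an antisense gene, Gm26771, overlaps Sfrp2 and shares 11.98% of the 50-base words of its transcripts. The strand setting of the counting is not given in the sources used here, so reads from both cannot be told apart. The levels of Cdkn1c and Efnb3 followed Sfrp2 closely over the 12 samples (r 0.979 for each). Since Sfrp2 was the antagonist called in both strains, the 250 bases before its start are shown, 5′ to 3′ on the forward strand, with no TCF/LEF core and so no capitals.
Sfrp2, chr3:83766071-83766320, forward strand: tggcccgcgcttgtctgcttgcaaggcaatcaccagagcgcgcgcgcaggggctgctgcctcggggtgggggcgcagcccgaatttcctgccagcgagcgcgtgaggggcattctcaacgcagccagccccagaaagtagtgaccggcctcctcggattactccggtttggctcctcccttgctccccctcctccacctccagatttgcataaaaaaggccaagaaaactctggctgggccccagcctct
The stretch before the Wif1 start, whose Crouzon effect differed between the strains, is shown beside it. It ends before the earliest GENCODE start and also holds 0 cores.
Wif1, chr10:121033754-121033959, forward strand: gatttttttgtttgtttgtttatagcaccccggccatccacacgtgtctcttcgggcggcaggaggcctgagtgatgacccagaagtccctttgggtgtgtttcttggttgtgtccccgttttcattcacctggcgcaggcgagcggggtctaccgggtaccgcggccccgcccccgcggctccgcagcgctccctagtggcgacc

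Sfrp4, a Frizzled-related protein linked to cortical bone, lies on chromosome 13 at 19623175 to 19632823, forward strand. Its level was 30.1, 41.9 and 56.6 CPM in C57BL/6 wild type libraries and 75.8, 75.2 and 59.2 CPM in C57BL/6 Crouzon libraries. In BALB/c it was 55.1, 50.5 and 39.4 CPM in wild type and 70.6, 52.3 and 79 CPM in Crouzon libraries. The C57BL/6 groups came close, with wild type replicate 3 just under Crouzon replicate 6, and the BALB/c groups overlapped. For Sfrp4 the Crouzon effect was a log2 fold change of 0.71 on C57BL/6 (SE 0.215, adjusted p 0.0335, edgeR) and 0.48 on BALB/c (SE 0.215, adjusted p 0.416), with an interaction of -0.23 (SE 0.303, adjusted p 0.648). The C57BL/6 call ended without wild type replicate 1, wild type replicate 2, Crouzon replicate 4 or Crouzon replicate 5 (adjusted p 0.1, 0.075, 0.0522 and 0.094). Library totals (0.54, adjusted p 0.0588), the Y-linked covariate (0.57, adjusted p 0.122) and a fit of only the C57BL/6 samples ended it too. Nearest in pattern were Qsox1 (r 0.873) and Traf5 (r 0.87).

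Sfrp1, a broadly expressed Frizzled-related protein, lies on chromosome 8 at 23411502 to 23449632, forward strand. Its level was 86.4, 45.8 and 43.7 CPM in C57BL/6 wild type libraries and 24.4, 7.71 and 10.9 CPM in C57BL/6 Crouzon libraries. On BALB/c it was 12.8, 16.3 and 16.2 CPM in wild type and 17.6, 13.3 and 13.9 CPM in Crouzon libraries. The C57BL/6 wild type libraries were the high ones, and Crouzon replicate 4 lay between them and the rest. The log2 fold change was -2.03 on C57BL/6 (SE 0.369, adjusted p 0.00347, edgeR). It was called in 6 of 6 fits without 1 library, with values from -2.66, without Crouzon replicate 4, to -1.62. On BALB/c it was -0.02 (SE 0.37, adjusted p 0.999). The interaction was 2.01 (SE 0.519, adjusted p 0.0346, edgeR). It was kept in 3 of 12 fits without 1 library. It ended without C57BL/6 replicate 1, 5 or 6, or any 1 BALB/c library, 13 to 18, with adjusted p-values of 0.0564 to 0.0866, and with the Y-linked covariate (1.97, adjusted p 0.0676).

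Sfrp1 ran along with the epithelial markers. The 10 markers summed to 780, 489 and 390 CPM in C57BL/6 wild type replicates 1, 2 and 3, where Sfrp1 was 86.4, 45.8 and 43.7 CPM, and to 190 CPM in Crouzon replicate 4, where Sfrp1 was 24.4 CPM. In the other 8 libraries the markers summed to at most 7.06 CPM and Sfrp1 to at most 17.6 CPM. In BALB/c, where the markers were near 0, Sfrp1 did not differ between genotypes. The part of epithelial RNA in the C57BL/6 difference was not tested. Closest to Sfrp1 in pattern were Hes6 (r 0.99) and Stx1a (r 0.989), both known in neurons and neuronal precursors.

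**Figure D3:**
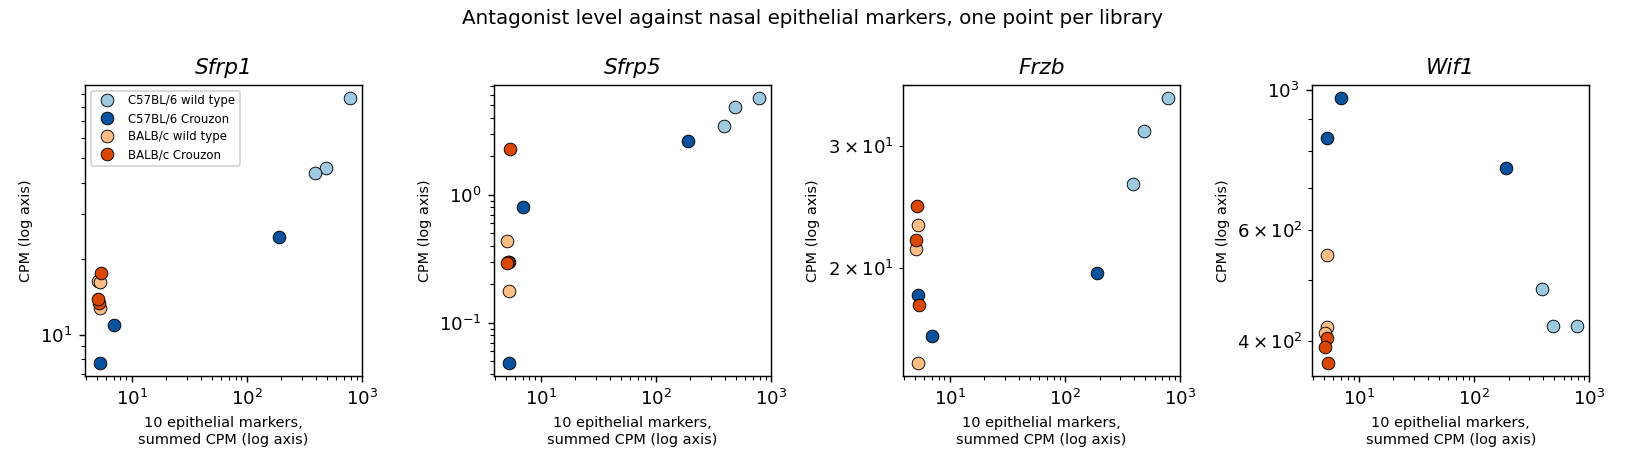
Level of Sfrp1, Sfrp5, Frzb and Wif1 (CPM, log axis) against the summed level of 10 markers of nasal epithelium (CPM, log axis), 1 point per library. The 3 C57BL/6 wild type libraries and C57BL/6 Crouzon replicate 4 lie at 190 CPM of markers or more and carry the highest Sfrp1 and Sfrp5, while the highest Wif1 is in Crouzon libraries with both low and raised markers.

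Sfrp5, the least abundant antagonist in C57BL/6 wild type samples, lies on chromosome 19 at 42197971 to 42202252, reverse strand. Its counts were 218, 160 and 128 in C57BL/6 wild type libraries, 116, 2 and 30 in C57BL/6 Crouzon libraries, 8, 14 and 6 in BALB/c wild type libraries and 76, 14 and 12 in BALB/c Crouzon libraries. As levels these were 5.66, 4.82 and 3.43 CPM, then 2.62, 0.0485 and 0.808 CPM, then 0.3, 0.432 and 0.176 CPM, and 2.28, 0.301 and 0.295 CPM. Each Crouzon group held 1 library far above its other 2, replicate 4 on C57BL/6 and replicate 16 on BALB/c. The C57BL/6 difference of -1.99 (SE 0.946, adjusted p 0.141, edgeR) was not called, although the ranges did not overlap. It was called without Crouzon replicate 4 (-3.46, adjusted p 0.0172) and by limma-voom (-3.13, adjusted p 0.0185). The weakest values were -1.43 among the fits without 1 library and -1.39 among the other alternatives, neither called. Replicate 4 had 190 CPM of epithelial markers, and BALB/c replicate 16 had 421 CPM of 8 skeletal muscle markers, where every other library had at most 76.2 CPM. What part either tissue had in Sfrp5 was not tested. The BALB/c difference of 1.63 (SE 1.07, adjusted p 0.617) was -0.01 without replicate 16. The interaction of 3.61 was not called (SE 1.43, adjusted p 0.118, edgeR), but was without C57BL/6 Crouzon replicate 4 (5.07, adjusted p 0.018).

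Frzb, a Frizzled-related protein known from cartilage, lies on chromosome 2 at 80411970 to 80447396, reverse strand. Its level was 35.2, 31.6 and 26.5 CPM in C57BL/6 wild type libraries and 19.7, 18.3 and 16 CPM in C57BL/6 Crouzon libraries. In BALB/c it was 23.1, 21.3 and 14.6 CPM in wild type and 17.7, 24.6 and 22 CPM in Crouzon libraries. The C57BL/6 wild type libraries stood above all 9 others. The log2 fold change was -0.79 on C57BL/6 (SE 0.169, adjusted p 0.00792, edgeR), called in 6 of 6 fits without 1 library, and 0.13 on BALB/c (SE 0.17, adjusted p 0.841). The interaction was 0.92 (SE 0.24, adjusted p 0.0363, edgeR) and was kept in 4 of 12 fits without 1 library. It ended without C57BL/6 replicate 1, 2, 5 or 6 or BALB/c replicate 14, 15, 17 or 18, with adjusted p-values of 0.0579 to 0.0925.

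Chondrocyte markers moved with Frzb in some libraries and not in others. Their sum was 8621 CPM or more in the C57BL/6 wild type libraries, and in BALB/c Crouzon replicate 17, where it was 9267 CPM, Frzb was the highest of its group at 24.6 CPM. In BALB/c wild type the order was reversed, with marker sums of 3703, 4323 and 4840 CPM in the libraries where Frzb was 23.1, 21.3 and 14.6 CPM. Epithelial markers were also highest in C57BL/6 wild type, and the part of either tissue in the Frzb result was not tested. Ccdc77 (r 0.916) and Daam1 (r 0.904), a formin of the non-canonical Wnt branch, were nearest in pattern. Among the antagonists themselves, log2 CPM over the 12 samples ran together for Sfrp1 with Sfrp5 (r 0.86), Sfrp1 with Frzb (r 0.76) and Sfrp2 with Dkk3 (r 0.74), and in opposite directions for Sfrp1 with Dkk1 (r -0.81).

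**Figure D4:**
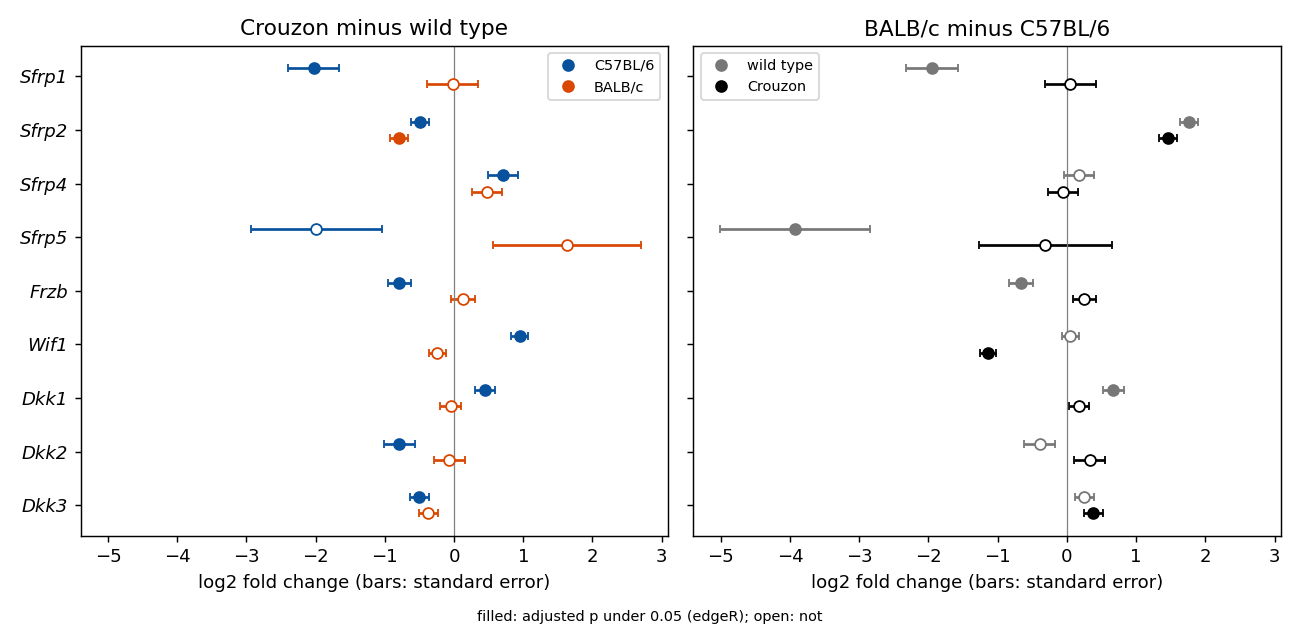
Log2 fold changes of the 9 antagonists, Crouzon minus wild type on each strain (left) and BALB/c minus C57BL/6 in each genotype (right), with standard errors as bars and called genes filled. On the left Wif1, Sfrp1 and Frzb are the genes whose difference between strains was called. The bars of Sfrp2, Sfrp5, Dkk1 and Dkk2 also lie apart there, without a call for that difference, and Sfrp2 lies far to the right in both genotypes on the right.

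Between wild type samples of the strains, 5 of the 9 antagonists were called (edgeR), 2 higher and 3 lower on BALB/c, where 48.5% of all genes were called, 22.8% higher and 25.6% lower. Sfrp2 was higher on BALB/c (log2 1.76, SE 0.132, adjusted p 3.17e-06, edgeR), or 3.38-fold, as was Dkk1 (0.67, SE 0.148, adjusted p 0.00332). Sfrp1 was lower (-1.95, SE 0.371, adjusted p 0.00131), as were Frzb (-0.66, SE 0.17, adjusted p 0.00734) and Sfrp5 (-3.93, SE 1.08, adjusted p 0.0107). These 5 calls were kept in 6 of 6 fits without 1 library, and that for Sfrp5 ended with the Y-linked covariate (-3.28, adjusted p 0.0752). Dkk2 (-0.39) and Dkk3 (0.25) were not called, and both were without C57BL/6 replicate 3 (-0.61, adjusted p 0.0261, and 0.42, adjusted p 0.0182). Epithelial markers, at 390 to 780 CPM in C57BL/6 wild type and 5.06 to 5.33 CPM in BALB/c wild type libraries, moved with the 3 genes that were lower, as did chondrocyte markers, at 8621 to 10412 CPM and 3703 to 4840 CPM. Markers of dura mater and meninges moved with the 2 that were higher, at 99.4 to 109 CPM in C57BL/6 and 119 to 134 CPM in BALB/c wild type libraries. The part of these markers was not tested, and the run identifier differed together with strain in each of these values.

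Between Crouzon samples of the strains, 3 of the 9 were called (edgeR), 2 higher and 1 lower on BALB/c, where 36.9% of all genes were called, 18% higher and 18.9% lower. Sfrp2 was again higher on BALB/c (log2 1.46, SE 0.131, adjusted p 9.67e-06, edgeR) and Wif1 was lower (-1.14, as given above). Dkk3 was higher by 0.38 (SE 0.14, adjusted p 0.0492), a call that ended without any 1 of the 6 Crouzon libraries (adjusted p 0.0521 to 0.164), with RLE factors (adjusted p 0.0575) and with the Y-linked covariate (adjusted p 0.0636). Sfrp1 (0.05), Frzb (0.25) and Sfrp5 (-0.31) did not pass here (adjusted p 0.925, 0.265 and 0.827, edgeR).

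In the test of the interaction, 3 of the 9 were called (edgeR), Sfrp1 and Frzb with a higher effect on BALB/c and Wif1 with a lower one, where 10% of all genes were called, 5.46% higher and 4.58% lower. The count was 1 to 4 over the fits without 1 library. It was 1 without C57BL/6 replicate 1, 5 or 6 or BALB/c replicate 14, 15, 17 or 18. Over the mean of both strains, 5 of the 9 were called, 2 higher and 3 lower in Crouzon samples, where 7.99% of all genes were called, 4.71% higher and 3.28% lower. Beside Sfrp2 and Dkk3 these were Sfrp1 (-1.03, adjusted p 0.0341), Sfrp4 (0.59, adjusted p 0.0355) and Wif1 (0.35, adjusted p 0.0285). For Wif1 the mean joins 0.95 on C57BL/6 with -0.24 on BALB/c, and for Sfrp1 it joins -2.03 with -0.02. Since the interactions of both genes were called, their means do not describe an effect common to the strains. The calls for Sfrp1, Sfrp4 and Wif1 in this mean were kept in 4, 4 and 6 of 12 fits without 1 library. That for Sfrp1 ended without C57BL/6 replicate 1, 5 or 6 or BALB/c replicate 13, 14, 15, 17 or 18 (adjusted p 0.0544 to 0.0875). That for Sfrp4 ended without C57BL/6 replicate 2, 5 or 6 or BALB/c replicate 13, 14, 15, 16 or 18 (adjusted p 0.0518 to 0.0951). That for Wif1 ended without C57BL/6 replicate 2 or 6 or BALB/c replicate 13, 14, 17 or 18 (adjusted p 0.0513 to 0.0729). In the other direction, Frzb was called in the mean without BALB/c replicate 15 (-0.42, adjusted p 0.0455), Dkk1 without C57BL/6 replicate 2 (0.30, adjusted p 0.0398) and Dkk2 without C57BL/6 replicate 3 (-0.53, adjusted p 0.0389). The Y-linked covariate ended the calls for Sfrp1 and Sfrp4 in the mean (adjusted p 0.0752 and 0.0789) and made Frzb pass (-0.46, adjusted p 0.0133), and library totals ended that for Wif1 (0.27, adjusted p 0.058). Over the alternatives that kept all libraries, the mean effect was -1.11 to -1.01 for Sfrp1 and 0.53 to 0.61 for Sfrp4. The count in the mean dropped to 1 without BALB/c replicate 13 or 18, to 2 without C57BL/6 replicate 6 or BALB/c replicate 14, and to 3 without C57BL/6 replicate 5 or BALB/c replicate 17.

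The rest of the Wnt pathway was described with 6 lists of 82 genes, of which 80 were in the table and 70 were tested. On C57BL/6, 35 of the 70 were called between Crouzon and wild type (edgeR), 17 higher and 18 lower, with a median log2 fold change of -0.07. Of all genes tested 23.9% were called, 11.3% higher and 12.6% lower, and each list count on C57BL/6 stands beside these shares. With library totals the split of the 35 was 11 higher and 24 lower. On BALB/c 0 of the 70 were called by edgeR or limma-voom and 2 by DESeq2, and 16 had an unadjusted p under 0.05 in edgeR, as did 11.7% of all genes. Since 0.136% of all genes were called on BALB/c, a count of 0 in 70 is no result about these lists. The C57BL/6 count was 23 without Crouzon replicate 5, 22 without Crouzon replicate 6 and 39 without Crouzon replicate 4.

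Of the Wnt ligands on C57BL/6, 2 rose and 4 fell of 13 tested, or 46.2% called against 23.9% of all genes, and with library totals 1 was higher and 5 were lower. Wnt11, a non-canonical ligand, fell from 4.16 CPM ± 0.315 to 1.41 ± 0.147 (SD, n = 3 each; log2 -1.55, adjusted p 0.00185, edgeR), and Wnt4 fell from 11.8 ± 2.01 to 4.4 CPM ± 2.14 (log2 -1.41, adjusted p 0.00519). Wnt5a, which signals mostly outside the beta-catenin branch, rose from 26.1 ± 2.3 to 36.7 CPM ± 4.84 (log2 0.49, adjusted p 0.00824). Of 18 receptors and co-receptors, 5 rose and 5 fell, or 55.6% called against 23.9%. The co-receptor Lrp5, which Dkk1 binds, rose from 229 ± 24.7 to 372 CPM ± 44.2 (log2 0.70, adjusted p 8.17e-04, edgeR). Lrp4, through which sclerostin acts in bone, rose from 249 ± 11.2 to 430 CPM ± 25.1 (log2 0.79, adjusted p 3.38e-04), and the receptor Fzd5 rose by 0.71 (adjusted p 4.20e-04).

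Of 10 other inhibitors tested, 2 rose and 2 fell, or 40% called against 23.9% of all genes, with a median of -0.22. With library totals 1 was higher and 4 were lower, with a median of -0.42. The transcriptional co-repressor Tle2 rose (log2 0.61, adjusted p 6.95e-04, edgeR), its relative Tle1 fell (-0.67, adjusted p 0.00857), and Sostdc1, a secreted inhibitor of BMP and Wnt signals, fell from 7.77 CPM ± 0.366 to 4.19 ± 0.2 (-0.89, adjusted p 0.0233). In the R-spondin axis, whose ligands raise the level of Wnt receptors at the cell surface, 2 rose and 4 fell of 8 (75% called), with a median of -1.05, and with library totals 1 was higher and 4 were lower. The ligand Rspo3 fell from 13.1 CPM ± 2.92 to 6.92 ± 1.1 (-0.92, adjusted p 0.00558, edgeR) and Rspo2 from 2.25 ± 0.44 to 0.734 CPM ± 0.426 (-1.62, adjusted p 0.00919). The receptor Lgr5 fell by 1.35 on the log2 scale (adjusted p 0.00181).

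In the beta-catenin cascade 4 rose and 0 fell of 13 (edgeR), with a median of 0.13. The 30.8% called lies near the 23.9% of all genes, and with library totals 2 were higher and 1 lower, with a median of -0.06. Ctnnb1, which encodes beta-catenin, rose from 1005 CPM ± 47.8 to 1367 ± 59.6 (log2 0.44, adjusted p 9.71e-04), Wls, the carrier of Wnt proteins out of the cell, rose by 0.39 (adjusted p 0.00309) and Tcf7l1 by 0.31 (adjusted p 0.00345), a call that ended with library totals (0.12, adjusted p 0.196). Of 8 target genes 2 rose and 3 fell, or 62.5% called against 23.9% of all genes. Tcf7 rose from 58.7 ± 9.26 to 84 CPM ± 0.744 (0.52, adjusted p 0.0028, edgeR), while Ccnd1, a cell cycle gene, fell from 124 ± 4.92 to 68.5 CPM ± 13.8 (-0.86, adjusted p 0.00103) and the feedback inhibitor Nkd1 fell by 0.58 (adjusted p 0.00792).

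**Figure D5:**
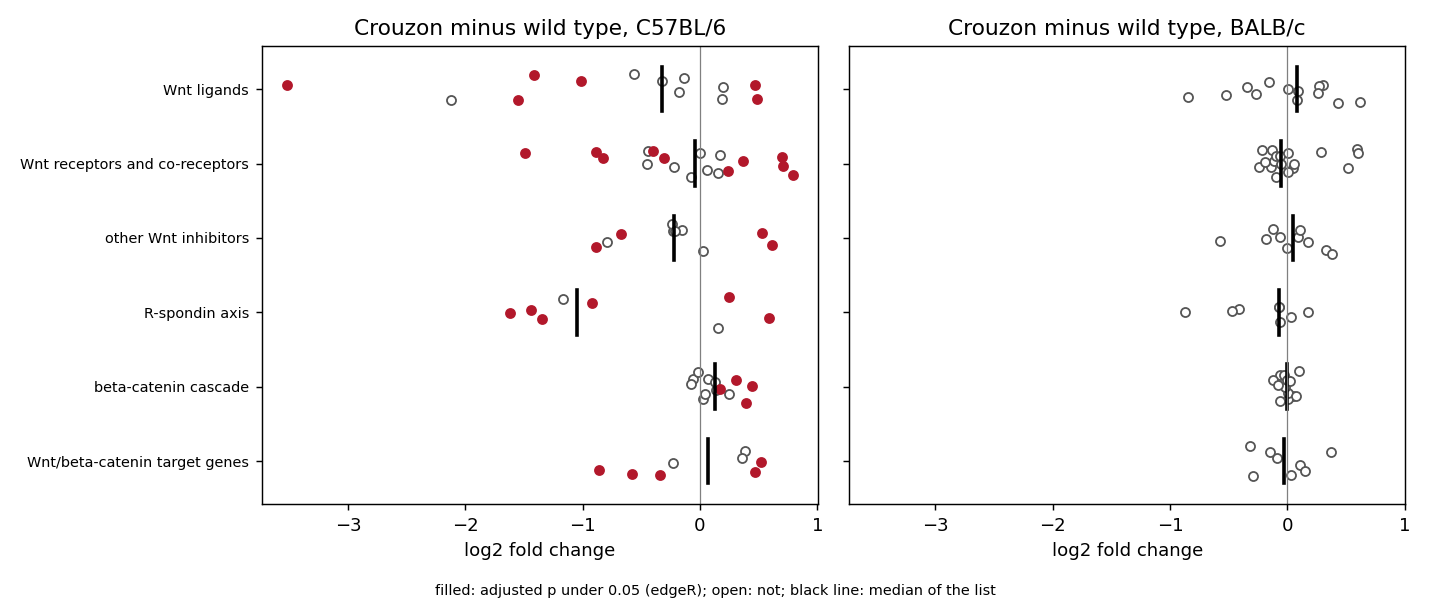
Log2 fold changes, Crouzon minus wild type, of the 70 tested genes in 6 Wnt pathway lists on C57BL/6 (left) and BALB/c (right), with called genes filled and a black line at each list's median. Called genes lie on both sides of 0 in 5 of the 6 lists on C57BL/6 with TMM factors (with library totals the beta-catenin cascade also has 1 called lower), and 0 genes are called on BALB/c.

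In the authors' deposited table of DESeq2 comparisons, 6 of the antagonists had a q-value under 0.05 for Crouzon against wild type on C57BL/6, as did 25.3% of the genes with a q-value in the authors' deposited table. In the authors' deposited table Wif1 was at a log2 fold change of 0.84 (q 2.64e-04), Sfrp1 at -1.34 (q 7.48e-05), Frzb at -0.71 (q 3.50e-04), Dkk2 at -0.69 (q 0.0018), Dkk3 at -0.48 (q 0.00274) and Sfrp5 at -0.83 (q 0.01). Sfrp5 was thus called in the authors' deposited table and not by edgeR here. Sfrp4 (0.56, q 0.0534), Dkk1 (0.37, q 0.236) and Sfrp2 (-0.38, q 0.245) were not past that threshold in the authors' deposited table and were called by edgeR here. On BALB/c Sfrp2 stood at -0.63 with a q of 0.206 in the authors' deposited table. DESeq2 as run here called 8 of the 9 on C57BL/6, 3 higher and 5 lower, the same split as edgeR. The authors' log2 fold changes of Sfrp1 and Sfrp5 were smaller in size than those by edgeR here (-2.03 and -1.99). The reason was not tested.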

How the data were processed

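Gene expression in 12 samples was taken from 1 deposited table of raw counts per gene. Per the submitters' processing notes, TopHat2 2.0.6, HTSeq and the mm10 build were used. The authors' counts were all even (0 odd values), which is what counting both mates of each pair gives, and were used as deposited. If both mates were counted, the fragments were fewer than the counts that entered the filter and the tests. The same table gave the authors' RPKM values, which were not used here, and a length for each gene model, which was used to compare levels between genes. Only 37.8% of these lengths are multiples of 3, so they were read as whole gene models rather than coding length. A second deposited table held the authors' log2 fold changes with p-values and q-values for 4 comparisons, by DESeq2 per the file headers. The strand setting is not given in the sources used here, and 0 value columns belonged to no sample.

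Testing used edgeR 4.0.16 (R 4.3.3). The filterByExpr rule on the 4 groups, with a minimum count of 10 and a total of 15, kept 16190 of 23358 genes, and TMM factors scaled the libraries. All 12 samples entered 1 quasi-likelihood model with 4 group means, with Benjamini-Hochberg adjustment over all genes tested and calls at an adjusted p under 0.05. Standard errors come from the F statistic. On simulated counts for these 16190 genes, 91% of genes changed by 1 on the log2 scale were called in the C57BL/6 genotype comparison and 94% in the BALB/c one. The changed genes had a mean of at least 5 CPM, and 100 were changed by 1 and 100 by 2. In the real BALB/c comparison 22 genes were called, and with fewer calls the adjustment is stricter. These shares therefore do not give the power for smaller effects, for Sfrp5 or for the real BALB/c comparison. Levels are CPM on TMM-scaled totals. Likeness is Pearson's r of log2 CPM (prior count 2).

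Alternatives were DESeq2 1.42.0, limma-voom (limma 3.58.1), RLE factors, library totals, no filter, only the groups compared, a Y-linked covariate, and leaving out each library. The antagonists, the pathway and marker lists and the tests were chosen with earlier results of these data known. Pathway genes were named where they had the 3 smallest adjusted p-values among the called genes of a list on C57BL/6, and the 2 genes most like each called antagonist were named. Promoters were matched by symbol in a RefSeq table of GRCm38.p6, which held 6 of the 9. Total counts ranged from 27.2 M to 46.5 M, and Sfrp5 rests on 2 to 218 counts per library.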

Additional observations from a re-analysis of the deposited data

Results flagged for a closer look

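The Crouzon effect on 3 antagonists differed between strains by the interaction test over all genes (edgeR), where 10% of all genes were called. Each value is the log2 effect on BALB/c minus that on C57BL/6. For Wif1 it was -1.19, with higher levels in 3 of 3 C57BL/6 Crouzon libraries than in any C57BL/6 wild type library. On BALB/c its levels were lower in 3 of 3 Crouzon libraries than in any wild type library, but that difference was not called (log2 -0.24, adjusted p 0.464, edgeR). Of all genes, 41.6% had ranges without overlap between genotypes on C57BL/6 and 20% on BALB/c. For Sfrp1 it was 2.01 and for Frzb 0.92. Both were lower in 3 of 3 C57BL/6 Crouzon libraries than in any wild type library of that strain, and their BALB/c groups overlapped. The interactions of Sfrp1 and Frzb were kept in 3 and 4 of 12 fits without 1 library, and that of Wif1 in 12 of 12. Strain and run cannot be told apart in these differences.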

How the results depend on the processing

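No paired analysis was run. The groups compared share no replicate numbers, but these are running sample numbers and do not tell whether mice of different groups were littermates. For the antagonists called on C57BL/6 (8), the Y-linked covariate gave 4 and only the groups compared gave 4, and leaving out 1 library gave 4 to 8. For the 6 pathway lists on C57BL/6 (35, 17 higher and 18 lower), library totals gave 11 higher and 24 lower, only the groups compared gave 22, and leaving out 1 library gave 22 to 39. On BALB/c the count of antagonists (1) was 0 with library totals, 0 with the Y-linked covariate and 0 to 1 without 1 library. The pathway count on BALB/c (0) was 2 with DESeq2 and 0 to 1 without 1 library, where it was 1 without BALB/c wild type replicate 14. Without 1 library the interaction count (3) was 1 to 4 and the count in the mean of both strains (5) was 1 to 6. The cause was not tested beyond the smaller number of samples in such fits.

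Values that changed sign were all uncalled. With library totals, Sfrp1 on BALB/c was 0.01, Wif1 between wild type strains -0.06 and Sfrp4 between Crouzon strains 0.06. With limma-voom, Sfrp5 between Crouzon strains was 0.07. Over fits without 1 library, BALB/c Crouzon effects ran from -0.15 to 0.06 for Sfrp1, -0.01 to 2.07 for Sfrp5, -0.05 to 0.26 for Frzb, -0.16 to 0.06 for Dkk1 and -0.26 to 0.15 for Dkk2. Differences between wild type strains ran from -0.03 to 0.43 for Sfrp4 and -0.09 to 0.12 for Wif1. Between Crouzon strains they ran from -0.24 to 0.68 for Sfrp1, -0.19 to 0.10 for Sfrp4 and -1.95 to 1.14 for Sfrp5. The interaction of Dkk3 ran from -0.03 to 0.26, and Sfrp5 in the mean of both strains from -1.0 to 0.10.

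Library totals in place of TMM factors moved the median of all genes by -0.20 on C57BL/6, -0.11 between wild type strains, 0.12 between Crouzon strains and 0.23 in the interaction. Groups of 3, the shared run identifier of each strain and the uneven epithelial, cartilage, erythroid and sex-linked makeup of the libraries limit these results. For Sfrp5, 2 to 14 counts in 6 libraries limit the depth, and if both mates of each pair were counted, the fragments behind them were fewer still.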
